A study of Homo sapiens with 24 samples.

Results

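Long noncoding RNA genes, antisense genes and the host genes of small nucleolar RNAs (snoRNAs) were followed through the 4 mRNA comparison tables of this series. Members were taken by symbol: names starting with LINC and a number, names starting with SNHG and a number, names ending in -AS and a number, and GAS5, MALAT1, NEAT1, MEG3 and H19. Of the 172 such symbols that any table lists, 130 had a mean normalised count of 10 or more in at least 1 table, out of 15168 genes that met this minimum. These 130 members were 73 antisense genes, 40 LINC genes, 12 SNHG genes and the 5 genes added by name. The other 42 symbols, 20 antisense and 22 LINC genes, were listed only below the minimum and are not described further.

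Each of the 4 tables pools 3 libraries of an aneuploid line with 3 libraries of its parental line, and there are 24 libraries. HCT116 is a human colorectal cancer line and RPE1 is a retinal pigment epithelial line immortalised with telomerase (hTERT). In most of the aneuploid lines extra chromosomes were brought in by fusing microcells with the recipient cells. The first table holds HCT116 5/4, with 4 copies of chromosome 5, and HCT116. The authors received HCT116 5/4 from another laboratory, and their Methods do not state how it was made. The second holds HCT116* 8/3 c7, clone 7 with 3 copies of chromosome 8, and HCT116*. The asterisk marks lines that carry histone H2B fused to GFP. The third holds RPE1 5/3 12/3, with 3 copies of chromosome 5 and an extra chromosome 12 that was gained spontaneously, and RPE1. The fourth holds RPE1* 21/3, with 3 copies of chromosome 21, and RPE1*. Each aneuploid line stands for 1 line or clone, so its values cannot be separated from those of that clone.

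The values below are the authors' means over the 6 libraries of a table. A level is this mean per 1000000 of all means in the table, written CPM below, and the means of a table summed to 18889290 to 23011803. There is no value per library, hence no replicate error, and no test was run: every difference is a description of 4 pooled tables, and the change from a parental line to its aneuploid line is not given. The lowest mean that a table lists was 1.98 to 3.36, and why a gene is not listed is not stated. Of genes with a mean of 100 or more in 1 table, 2 to 16 were not listed in the other table of the same cell type, none of them members. A gene that is not listed may thus still be expressed, and no fold is given against it. As a check of the cell types, the epithelial markers EPCAM and CDH1 stood at 218 and 87.5 CPM in the HCT116 5/4 table and 283 and 126 in the HCT116* 8/3 c7 table, whereas the RPE1-derived tables listed CDH1 nowhere and EPCAM in 1 table at 0.21. Of the other colon epithelium markers, KRT20 and CDX2 were listed in the HCT116-derived tables alone. KRT8 (3281 and 2975 against 853 and 885) and KRT18 (1458 and 1030 against 542 and 711) were expressed in both cell types. LGALS4 was listed in the HCT116* 8/3 c7 table alone, at 0.12, and VIL1 and CDX1 in no table. The mesenchymal gene VIM stood at 7622 and 5828 CPM in the RPE1-derived tables and at 24.9 and 5.3 in the HCT116-derived ones. Of the pigment epithelium markers, MITF (62.5 and 59.5 against 3.50 and 3.09) and BEST1 (1.86 and 2.19 against 0.39 and 0.13) were higher in both RPE1-derived tables, and OTX2 was listed there alone (31.1 and 22.2). The pigment genes TYR and TYRP1 were not listed in any table. RPE65 (14.9 and 9.67 against 0.45 and 0.24) and PMEL (5.04 and 6.85 against 0.78 and 0.78) were higher in the HCT116-derived tables, against the label.

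Long noncoding RNAs are transcribed, and usually spliced and polyadenylated, like mRNAs, but act as RNA or by being transcribed. Antisense genes lie on the opposite strand of, or head to head with, the gene they are named after. snoRNAs guide the methylation and pseudouridylation of ribosomal RNA, and in human cells most are cut from introns. In host genes such as GAS5 and the SNHG genes the spliced exons mostly encode no protein, and the exon RNA of several is a known substrate of nonsense-mediated decay. Several host genes belong to the 5′ terminal oligopyrimidine (TOP) genes, whose transcripts begin with a C followed by a run of pyrimidines, as those of ribosomal proteins do.

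By their spans in RefSeq, 17 of the 130 members hold 47 genes annotated as snoRNA. Hosts were counted by span alone, without regard to strand or intron, and small RNAs annotated as another type were not counted. GAS5 holds 11, SNHG1 holds 9 and SNHG12 holds 4, whereas SNHG10 holds none. The antisense symbols C17orf76-AS1 (now SNHG29) and ZNFX1-AS1 (now ZFAS1) hold 3 each. The starts of 7 hosts are shown. Those with a starting C and at least 4 further C or T bases come first, beside others that the levels below turn on. Each line gives 8 bases before and 22 bases from the annotated RefSeq start (GRCh38.p14), with the unbroken run of C and T from a starting C in capitals.

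SNHG12, chr1:28581852-28581881, minus strand: ttcagcgcCCTTTCTCCCCgccgcattccc
SNHG4, chr5:139274093-139274122, plus strand: cccggctgCCCTTTCCCCTCCggcctctgc
SNHG5, chr6:85678712-85678741, minus strand: acttcggtCTTTTacgtcggccttcgcgag
ZNFX1-AS1 (ZFAS1), chr20:49278634-49278663, plus strand: cattcgttCTTTCgcgtctgcggtgcccgg
SNHG1, chr11:62855864-62855893, minus strand: gattcgttCTCatttttctactgctcgtgg
GAS5, chr1:173869024-173869053, minus strand: atgaattcagatgtgtttattttggagcct
C17orf76-AS1 (SNHG29), chr17:16438979-16439008, plus strand: ttttgtgaggattgggatattccgactcct

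A starting C with at least 4 further C or T bases was found at 4 of the 12 hosts that have an entry in the promoter table, namely SNHG4, SNHG5, SNHG12 and ZNFX1-AS1. The same start was found at 880 of all 22114 promoters in that table (3.98%) and at 1 of 68 members that host no snoRNA. The match was read on the transcribed strand only, at 1 annotated start per gene, and a start placed a few bases away would not be counted. A host without such a run at this start, such as GAS5 or SNHG1, may therefore still be a TOP gene.

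All 12 SNHG genes, GAS5, C17orf76-AS1, ZNFX1-AS1 and EPB41L4A-AS1 had a mean of 10 or more in each of the 4 tables. Of the 17 hosts 15 did so, compared with 56 of the 113 members that host none and 78.7% of all genes. The remaining hosts by span, LINC00478 (now MIR99AHG, host of a microRNA cluster) and LINC00475, were listed in the RPE1-derived tables alone. Different genes were compared per kilobase of the canonical transcript, a scale that depends on the transcript chosen for each gene. The median SNHG gene then stood at 8.87, 19.6, 6.76 and 5.86 in the order of the tables. The median over all genes on that scale was 9.21, 9.11, 8.00 and 8.21. Antisense genes (1.11 to 1.32) and LINC genes (2.05 to 2.36) lay below both in each table.

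SNHG1 stood at 104 CPM in the HCT116 5/4 table, 149 in the HCT116* 8/3 c7 table, 45.9 in the RPE1 5/3 12/3 table and 33.0 in the RPE1* 21/3 table. The lower HCT116-derived value was thus 2.27-fold above the higher RPE1-derived one. SNHG12 followed the same order of cell types, at 19, 30.7, 6.73 and 7.02. So did SNHG4, at 11.5, 14.1, 4.41 and 2.39.
SNHG15 stood at 15 and 23.1 in the HCT116-derived tables and at 6.43 and 7.29 in the RPE1-derived ones. SNHG6 stood at 68.4 and 70.0 against 32.2 and 32.0 CPM, and 58.9% of its exon bases are shared with genes of the opposite strand. For these 5 genes both HCT116-derived tables lay more than 2-fold above both RPE1-derived tables, with the smallest log2 gap at 1.03 for SNHG15. This rests on scaling to the table total, with which the median log2 difference of all genes, RPE1 minus HCT116, was itself -0.35. The levels of SNHG7 (46.2, 54.6, 42.5 and 40.9) and SNHG11 (6.55, 6.78, 4.33 and 5.13) lay closer together. SNHG8 was the only SNHG gene with a higher mean log2 level in the RPE1-derived tables, at 33.0, 50.7, 45.5 and 39.8, and its tables overlapped between cell types.

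**Figure D1:**
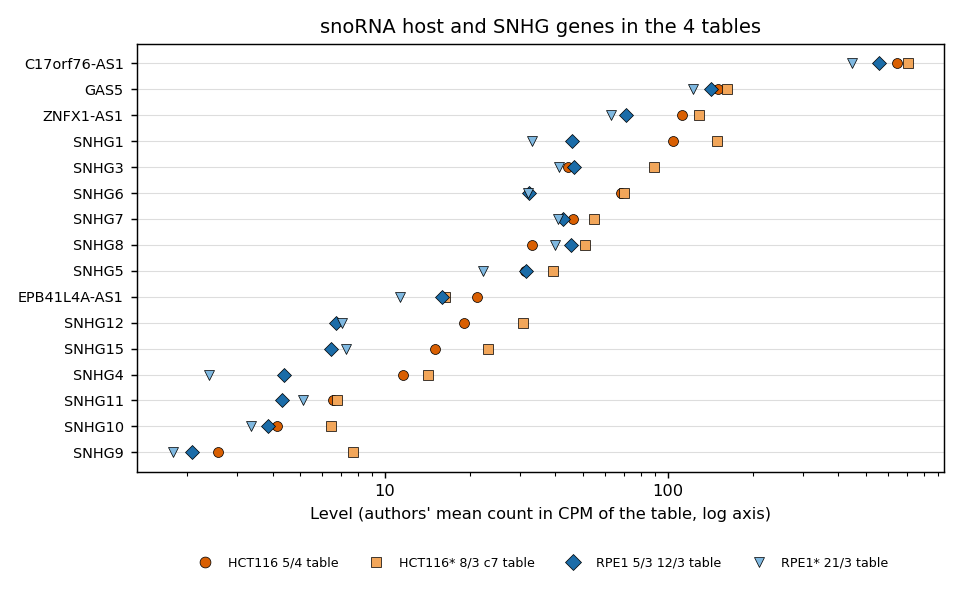
Level of the 16 snoRNA host and SNHG genes with a mean of 10 or more in all 4 tables, in the authors' mean count scaled to CPM on a log axis, 1 symbol per table and no error since libraries are pooled. The square of the HCT116* 8/3 c7 table lies furthest right for all 12 SNHG genes, and C17orf76-AS1 tops the plot at 447 to 703 CPM.

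Over the 12 SNHG genes the mean log2 level was lower in the RPE1-derived tables for 11, with a median difference of -0.81. The median over the 11939 genes with a mean of 10 or more in all tables was itself -0.35 on this scale. With scaling by the median ratio of genes, which brings that median near 0, 10 of the 12 SNHG genes were lower and their median was -0.47. No SNHG gene passed the 4-fold rule in both tables of a cell type against both of the other. GAS5 stood at 151, 161, 142 and 123 CPM. C17orf76-AS1 (647, 703, 556 and 447) and ZNFX1-AS1 (112, 128, 71.1 and 63.0) were higher in both HCT116-derived tables on this scale. Per kilobase C17orf76-AS1 was the highest of all members in each table, at 1009 to 1587 CPM per kilobase, followed by GAS5 (185 to 210) in 3 tables and by MEG3 (180) in the RPE1* 21/3 table. The value of C17orf76-AS1 rests on a canonical transcript of 443 bases, whereas its annotated exons cover 8947 bases.

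The core proteins of snoRNA particles and factors of their assembly, such as NAF1, SHQ1 and NUFIP1, were described beside the snoRNA hosts. All 13 listed proteins were lower in the RPE1-derived tables, with a median log2 difference of -1.04 (-0.70 with median ratio scaling, again all 13 lower), and none was past 4-fold. The methyltransferase fibrillarin (FBL) stood at 203 and 257 CPM in the HCT116-derived tables and at 119 and 101 in the RPE1-derived ones. The scaffold NOP56, itself the host of snoRNAs, stood at 235 and 332 against 90.5 and 102, and the pseudouridine synthase dyskerin (DKC1) at 155 and 182 against 62.5 and 65.1. Of 14 nonsense-mediated decay factors, 11 were lower in the RPE1-derived tables, with a median of -0.44 beside the -0.35 of all genes (9 of 14 with median ratio scaling). The helicase UPF1 stood at 127, 145, 111 and 109 CPM in the order of the tables.

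MALAT1 and NEAT1 are nuclear RNAs, of nuclear speckles and of paraspeckles, and lie near each other on chromosome 11 (hg19, MALAT1 at 65265111 to 65275544 and NEAT1 at 65190245 to 65213011). Together they made up 32.1% to 49.9% of the summed level of all members. MALAT1 stood at 929 CPM in the HCT116 5/4 table, 458 in the HCT116* 8/3 c7 table, 1077 in the RPE1 5/3 12/3 table and 1004 in the RPE1* 21/3 table. The 2 HCT116-derived tables thus lay 2.03-fold apart, whereas the 2 RPE1-derived ones were within 1.07-fold. Annotated genes of the opposite strand cover 83.7% of the exon bases of MALAT1, and no strand option was named for the counting, so reads of the 2 strands cannot be told apart. NEAT1 stood at 445, 513, 394 and 499 CPM, and its tables overlapped between cell types. Of 12 paraspeckle and speckle proteins all were lower in the RPE1-derived tables, as were 7875 of 11939 genes. Their median was -0.62 on the log2 scale, with a range of -0.94 to -0.25, beside a median of -0.35 for all genes. With median ratio scaling 11 of the 12 were lower and their median was -0.27. NONO (746, 731, 542 and 479 CPM) and SFPQ (419, 412, 302 and 236) were among these proteins.

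MEG3 and H19 are imprinted genes whose long noncoding RNAs come from the maternal allele, MEG3 on chromosome 14 (101245747 to 101327368) and H19 on chromosome 11 (2016396 to 2025782). MEG3 was not listed in either HCT116-derived table and stood at 76.9 CPM in the RPE1 5/3 12/3 table and 114 CPM in the RPE1* 21/3 table. H19 showed the opposite order, at 4.47 and 4.16 CPM in the HCT116-derived tables, not listed in the RPE1 5/3 12/3 table and 0.18 in the RPE1* 21/3 table. Of the 13 imprinted genes of the same 2 regions chosen for comparison, 8 had a mean of 10 or more. MEG8, a noncoding neighbour of MEG3, was listed in the RPE1-derived tables alone (0.86 and 0.65), and DLK1 and RTL1 of the same region were listed in no table. DIO3 of that region went the other way, at 2.06 and 0.81 in the HCT116-derived tables and not listed in the RPE1-derived ones. IGF2, the growth factor gene beside H19, was listed in the HCT116-derived tables alone (6.33 and 2.40 CPM), as was the potassium channel gene KCNQ1 (16.4 and 11.9). The cell cycle inhibitor CDKN1C stood at 21 and 10.1 against 2.02 and 1.63. KCNQ1OT1, the noncoding RNA antisense to KCNQ1, stood at 5.81 and 3.44 in the HCT116-derived tables and 3.27 in the RPE1* 21/3 table and was not listed in the RPE1 5/3 12/3 table.

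Between cell types, a member was counted when its log2(level + 0.1) differed by at least 2, that is 4-fold, in the same direction in each of the 4 pairs of an RPE1-derived and an HCT116-derived table, with unlisted genes taken as 0. In this way 11 of the 130 members (8.46%) were higher in the RPE1-derived tables, where 7.71% of all genes were. In the other direction 21 members (16.2%) were higher in the HCT116-derived tables, where 12.1% of all genes were. Large folds were more frequent among low genes. Among genes whose highest level was under 5 CPM, 11.6% of all genes and 6 of 79 members were higher in the RPE1-derived tables, and 23.4% of all genes and 14 of 79 members in the HCT116-derived ones. At 5 CPM or more the shares of all genes were 6.76% and 9.42%, beside 5 and 7 of 51 members. With unlisted genes set at the lowest mean their table lists, the counts of members were 6 and 13 instead of 11 and 21.

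By class, the 11 members higher in the RPE1-derived tables were 5 of the antisense genes, 5 LINC genes and MEG3. The 21 higher in the HCT116-derived tables were 8 antisense genes, 12 LINC genes and H19. Most of these members were listed in a single cell type. A mean of at least 10 in both RPE1-derived tables and neither of the others was seen for 11 members and 5.08% of all genes, and the reverse for 20 members and 8.9% of all genes. In all 4 tables this mean was reached by 71 members (54.6%) and 78.7% of all genes, and by class by 42 of 73 antisense genes, 14 of 40 LINC genes and 12 of 12 SNHG genes.

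**Figure D2:**
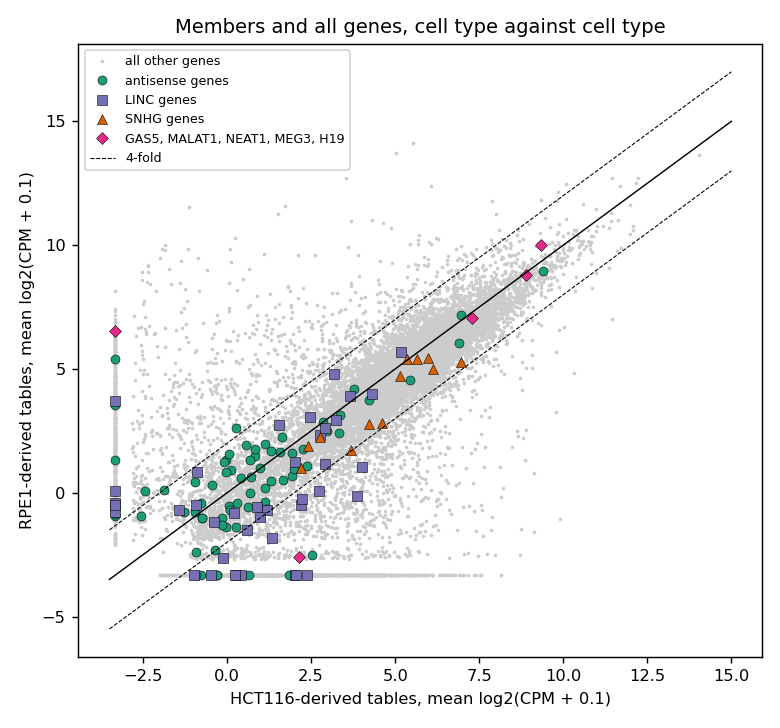
Mean log2(CPM + 0.1) of the 2 RPE1-derived tables (vertical) against that of the 2 HCT116-derived tables (horizontal) for 15168 genes, with the 130 members coloured by class, the line of equal level and dashed lines at 4-fold. Of the SNHG genes 11 of 12 lie under the line of equal level, and the points along the left and lower edges are genes not listed in a cell type, MEG3 the highest of the members on the left edge.

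Among the LINC genes, LINC00094 (now BRD3OS) had the highest mean in CPM, not scaled for length, at 35.0, 36.8, 51.1 and 52.1 CPM in the order of the tables. LINC00152 (now CYTOR) stood at 13.6, 5.79, 26.3 and 28.7, so that both RPE1-derived tables lay above both HCT116-derived ones while the latter differed 2.35-fold. It has a near-identical copy on the same chromosome, and the mapping kept 1 location per read, so its values are uncertain. LINC00493 is annotated today as the protein-coding gene SMIM26, and stood at 18.2, 21.5, 17.5 and 13.9. LINC00294 was close to level, at 11.3, 13.7, 13.3 and 17.1. LINC00263 (now OLMALINC) stood at 16.8 and 15.2 CPM in the HCT116-derived tables and 2.66 and 1.43 in the RPE1-derived ones, a smallest difference of 5.73-fold. Over the 14 LINC genes with a mean of 10 or more in each table the median difference was -0.33, a direction that turns with median ratio scaling (0.01). Such renamed symbols are common in these tables: 33 of 127 members with a RefSeq match carry another symbol there, and 7 are now called protein coding, HNRNPU-AS1 because its symbol has become a synonym of HNRNPU.

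LINC00472 was the LINC gene that set the RPE1-derived tables apart most clearly, at 12.6 and 13.2 CPM and not listed in the others. The next in this direction were low, LINC00526 at 0.94 and 0.96, LINC00478 at 0.63 and 0.58, LINC00313 at 0.55 and 0.75 and LINC00475 at 0.43 and 0.55, none of them listed in an HCT116-derived table. LINC00478 and LINC00313 lie on chromosome 21, which is gained in RPE1* 21/3, but both were listed in both RPE1-derived tables.
In the other direction, LINC00086 (3.53 and 4.36), LINC00326 (7.47 and 3.41), LINC00482 (3.12 and 5.12), LINC00470 (1.01 and 1.47) and LINC00535 (0.88 and 1.33) were listed in the HCT116-derived tables alone. LINC00535 lies on chromosome 8, gained in HCT116* 8/3 c7, and was listed in both HCT116-derived tables. These low means are sensitive to the pseudocount. With 1 instead of 0.1 CPM, 4 members were higher in the RPE1-derived and 6 in the HCT116-derived tables.

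**Figure D3:**
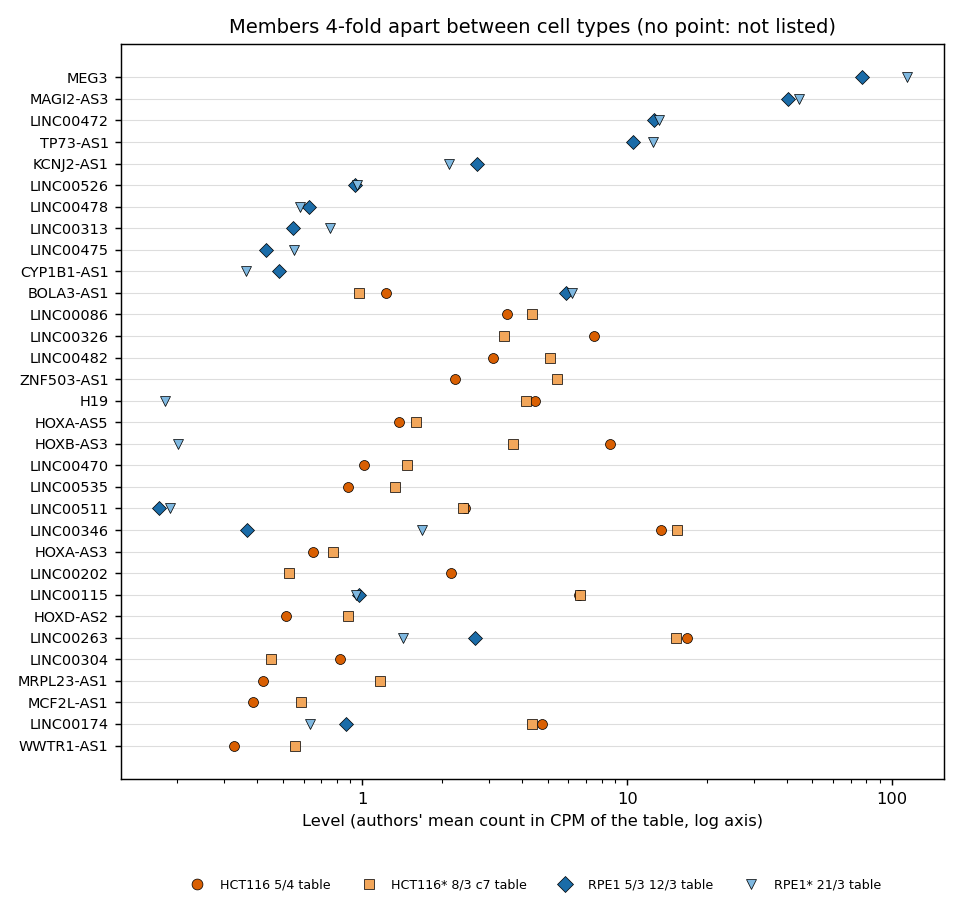
Level in CPM (log axis) in each of the 4 tables for the 32 members that differed 4-fold between cell types, the 11 higher in the RPE1-derived tables on top in order of the smallest difference and the 21 higher in the HCT116-derived tables below, with no error since libraries are pooled. A missing symbol means that the table does not list the gene, and 10 of the upper 11 genes have no HCT116 symbol.

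Antisense genes were compared with the gene whose symbol they carry. MAGI2-AS3 stood at 40.6 and 44.7 CPM in the RPE1-derived tables and was not listed in the others. Its partner MAGI2, a scaffold protein of cell junctions, stood at 0.35, 0.60, 6.84 and 6.89 in the order of the tables, so both genes of the pair were higher in the RPE1-derived tables. KCNJ2-AS1 (2.71 and 2.12) and the potassium channel gene KCNJ2 (20.4 and 14.2) were both listed in the RPE1-derived tables alone. CYP1B1-AS1 (0.48 and 0.36) was listed there alone too, and CYP1B1, a cytochrome P450, stood at 3.99, 1.99, 227 and 173.

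TP73-AS1, whose RefSeq symbol is now that of the pseudogene GFOD3P, went against its partner. It stood at 10.5 and 12.5 CPM in the RPE1-derived tables and was not listed in the others, whereas TP73, a transcription factor of the p53 family, stood at 48.5, 46.9, 3.79 and 4.05. BOLA3-AS1 stood at 1.23, 0.97, 5.89 and 6.20, a smallest difference of 4.80-fold, beside 16.3, 21.7, 12.2 and 11.9 for BOLA3, which serves iron-sulphur cluster assembly. ZNF503-AS1 was listed in the HCT116-derived tables alone (2.23 and 5.44) while ZNF503 stood at 57.1, 52.2, 49.0 and 46.0. The antisense genes HOXB-AS3 (8.64 and 3.71), HOXA-AS5 (1.37 and 1.59), HOXA-AS3 (0.65 and 0.77) and HOXD-AS2 (0.52 and 0.88) of the HOX clusters were higher in the HCT116-derived tables. Of these only HOXB-AS3 was listed in an RPE1-derived table, at 0.20.

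Of the 73 antisense genes 67 had a partner with a mean of 10 or more. In 47 pairs the difference between cell types had the same sign for both genes and in 20 the opposite sign (46 and 21 with median ratio scaling). Of the 9 paired antisense genes past 4-fold, 4 had a partner past 4-fold in the same direction. Per kilobase, for 61 pairs with a length for both genes, the antisense gene was the lower one in all 4 tables in 45 pairs and the higher one in 3, and the median partner was 10.1-fold higher. Here unlisted genes were taken as 0 and 0.1 CPM was added before the lengths entered, so their place is no measured fold. MAGI2-AS3 is among the 3, although the HCT116-derived tables do not list it. DLX6-AS1 is among the 45, although those tables list neither gene of the pair. The 61 pairs include HNRNPU-AS1, which was scaled by the length of its own partner HNRNPU because its symbol is now a synonym. OIP5-AS1, a cytoplasmic long noncoding RNA also known as cyrano, stood at 47.0, 40.5, 21.9 and 25.0 CPM, and its partner OIP5 at 16.8, 13.9, 7.22 and 7.41. FGD5-AS1 stood at 130, 117, 150 and 139 CPM. Over the 42 antisense genes with a mean of 10 or more in each table the median difference between cell types was -0.13, and 0.20 with median ratio scaling, so their direction depends on the scaling. The median antisense member shares 8.85% of its exon bases with genes of the other strand, and 4 share more than 50%, among them EPB41L4A-AS1 (51.2%). Reads in shared bases cannot be assigned to a strand.

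**Figure D4:**
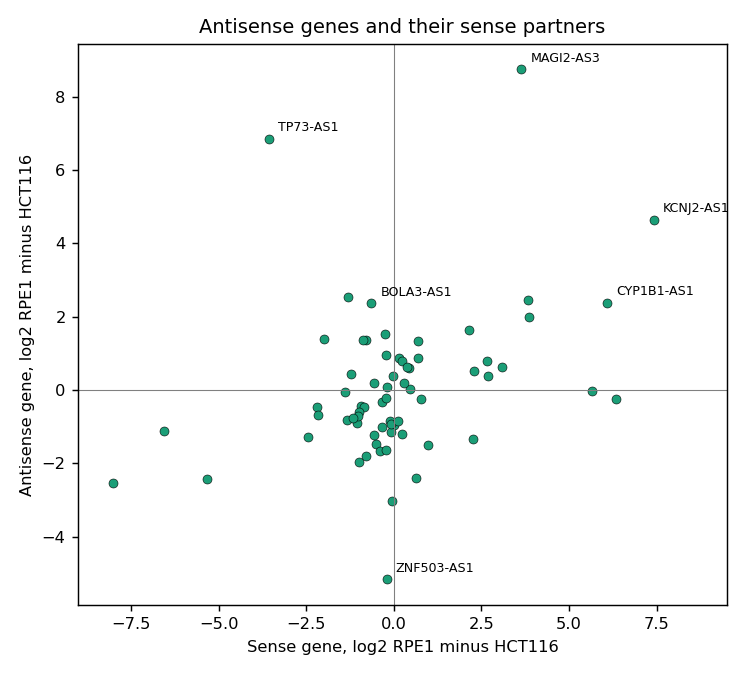
Difference between cell types, as the mean log2(level + 0.1) of the RPE1-derived tables minus that of the HCT116-derived tables, for 67 antisense genes (vertical) and the genes they are named after (horizontal), 1 point per pair. MAGI2-AS3 and KCNJ2-AS1 lie high on the right with their partners, and TP73-AS1 lies high on the left beside a partner at -3.57. Where a gene is not listed in a cell type, its place depends on the added 0.1 and is no fold.

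The 2 tables of a cell type come from separate sets of libraries that differ in parental line, histone fusion and gained chromosome, which cannot be told apart. Of 113 members compared between the HCT116-derived ones, 6 were at least 2-fold higher in the HCT116 5/4 table, where 4.16% of all genes were, and 5 were higher in the HCT116* 8/3 c7 table, where 2.06% of all genes were. Among members with a mean of at least 100, LINC00152 (2.35-fold), HOXB-AS3 (2.33-fold), LINC00326 (2.19-fold), MALAT1 (2.03-fold) and HNRNPU-AS1 (1.94-fold) were the furthest towards the HCT116 5/4 table. LINC00173 (3.34-fold), SNHG9 (2.99-fold), ZNF503-AS1 (2.44-fold), SNHG3 (2.01-fold) and LINC00482 (1.64-fold) were the furthest towards the HCT116* 8/3 c7 table. Every one of the 12 SNHG genes was higher in the HCT116* 8/3 c7 table, where 6066 of 11939 genes were, and the order held with the other 2 scalings. Their median log2 difference, HCT116 5/4 minus HCT116* 8/3 c7, was -0.56, beside -0.16 for the LINC genes (10 of 14 higher in the HCT116* 8/3 c7 table) and 0.08 for the antisense genes (17 of 42). The 13 core proteins and assembly factors of snoRNA particles were all higher in the HCT116* 8/3 c7 table as well, with a median of -0.26.

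The RPE1-derived tables lay closer together. Of 100 members 2 were 2-fold higher in the RPE1 5/3 12/3 table, LINC00341 (0.88 against 0.35 CPM) and DLX6-AS1 (0.84 against 0.22), where 2.14% of all genes were. In the other direction 2 members, LINC00346 (1.68 against 0.37) and AFAP1-AS1 (0.80 against 0.28), were higher in the RPE1* 21/3 table, where 2.3% of all genes were. All 71 members with a mean of 10 or more in each table lay within 2-fold, as did 98.1% of all genes. Furthest towards the RPE1 5/3 12/3 table among members with a mean of at least 100 were SNHG4 (1.85-fold), LINC00085 (1.42-fold), SNHG5 (1.42-fold), EPB41L4A-AS1 (1.4-fold) and SNHG1 (1.39-fold). Furthest towards the RPE1* 21/3 table were MEG3 (1.48-fold), LINC00294 (1.28-fold), NEAT1 (1.27-fold), LINC00116 (1.20-fold) and TP73-AS1 (1.19-fold). Of the SNHG genes 9 of 12 were higher in the RPE1 5/3 12/3 table, 8 with median ratio scaling and 12 with the means as deposited, with which 10067 of 11939 genes were higher there.

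Members on gained chromosomes were few. As a table holds 3 libraries with the gain and 3 without, a gene that followed its copy number would be higher by 0.58 on the log2 scale with 4 copies and by 0.32 with 3 copies. On chromosome 5, HCT116 5/4 table against HCT116* 8/3 c7 table, EPB41L4A-AS1 differed by 0.37 and SNHG4 by -0.29, beside a median of 0.43 over 554 genes on that chromosome. On the same chromosome in RPE1 5/3 12/3 against RPE1* 21/3 they differed by 0.48 and 0.86, beside a median of 0.28 over 587 genes. Thus EPB41L4A-AS1 was higher in both tables with extra copies of chromosome 5, and SNHG4 in 1 of them.

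On chromosome 8, SNHG6 differed by 0.03 and LINC00535 by 0.54 between the HCT116* 8/3 c7 and HCT116 5/4 tables, beside a median of 0.15 over 433 genes. HAS2-AS1 of the same chromosome was 3.99 CPM in the HCT116 5/4 table and 0.10 in the table with the gain. Chromosome 12 held 1 member, LINC00173, at 0.85 CPM in the RPE1 5/3 12/3 table and 0.44 in the RPE1* 21/3 table, where its mean was under 10. On chromosome 21, 5 of 6 members were higher in the RPE1* 21/3 table than in the RPE1 5/3 12/3 table. They ranged from LINC00478 at -0.09 to LINC00319 at 0.96, with a median of 0.39 beside 0.40 over 119 genes. The 73 members on other chromosomes had a median of -0.04 in this comparison. With the means as deposited the medians of the members were -0.02 on chromosome 5 of HCT116 5/4, a reversed sign, and 0.13 on chromosome 21.

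**Figure D5:**
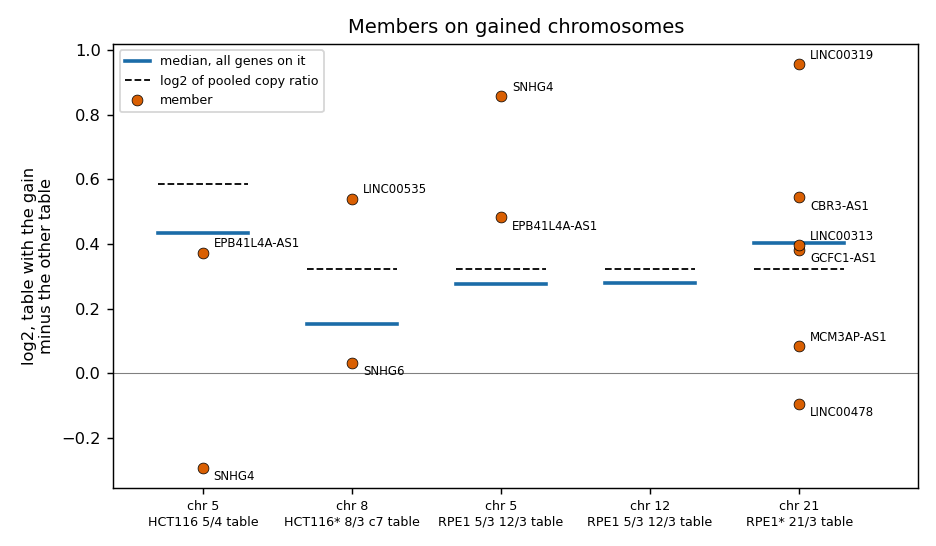
log2 level of each member on a gained chromosome in the table that holds the gain minus the other table of the same cell type (orange points), with the median of all genes on that chromosome (blue line) and the log2 ratio of pooled copies (dashed line). Chromosome 12 has no member with a mean of 10 or more in both tables, and SNHG4 lies at -0.29 in the HCT116 5/4 table and at 0.86 in the RPE1 5/3 12/3 table.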

How the data were processed

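RNA of 24 libraries (8 lines with 3 libraries each) was sequenced as 100 bp single reads per the labels. The authors trimmed with cutadapt, mapped to hg19 with TopHat 2.0.10 and RefSeq gene models, counted exon reads with featureCounts 1.4.3 and compared lines with DESeq2 (version not given in the sources used here). The deposited signal is the authors' mean of size-factor normalised counts over the 6 libraries of a table, and this mean was the value used. The tables' other columns hold the authors' own fold changes with errors, statistics and p-values and were not used. Depth per library is not given in the tables.

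Means were scaled per 1000000 of each table's total (CPM) and logged after adding 0.1. Tables were normalised separately, so levels across tables rest on this scaling. Folds needed 4-fold in all 4 table pairs between cell types and 2-fold within one, without tests. The members and gene lists were chosen with earlier results of these data known. Named genes are the 5 genes of the rule, SNHG genes, the 5 highest and 5 most different LINC and antisense genes each way, the 5 largest differences each way within a cell type (mean of at least 100), members on gained chromosomes and partners of named antisense genes; others were named after their values were seen. Positions and canonical lengths come from GENCODE lifted to GRCh37 (119 of 130 members placed), snoRNA hosts, current symbols and start sequences from RefSeq (GRCh38.p14). Lengths for sense pairs were added after the values were seen. Alternatives were other scalings, pseudocounts, minimum means, folds and tables. Work used Python 3.11.15, numpy 2.4.6 and pandas 2.3.3.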

Additional observations from a re-analysis of the deposited data

How the results depend on the processing

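No paired analysis was possible because the tables pool the libraries, and for the same reason no replicate could be left out. Members higher in the RPE1-derived tables numbered 11, and 4 with a pseudocount of 1 CPM, 6 with a minimum mean of 50, 6 at 8-fold, 18 at 2-fold and 6 with unlisted genes at the lowest listed mean. Members higher in the HCT116-derived tables numbered 21, and 6, 10, 10, 39 and 13 under the same settings. The other scalings, no minimum mean and the tables without or with fluorescent histone alone gave 11 to 13 and 19 to 31. The settings on unlisted genes and on fluorescent histone were chosen after seeing the data.

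Members higher in the HCT116 5/4 than the HCT116* 8/3 c7 table numbered 6, and 1 at 4-fold. In the other direction they numbered 5, and 2 with a pseudocount of 1 CPM, 17 with no minimum mean and 0 at 4-fold. Members higher in the RPE1 5/3 12/3 table numbered 2, and 5 with the means as deposited and 13 with no minimum mean. Those higher in the RPE1* 21/3 table numbered 2, and 7 with no minimum mean. Both counts were 0 with a pseudocount of 1 CPM, with a minimum mean of 50 and at 4-fold. The median of members on chromosome 5 in the HCT116 5/4 table was 0.04, and -0.0169 with the means as deposited. Of 33 antisense pairs with means of at least 50, 22 differed between cell types with the same sign (47 of 67 otherwise). On chromosome 21 no member had a mean of 50 in both tables.

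With a minimum mean of 50 the tables held 53, 57, 54 and 48 members instead of 104, 107, 95 and 90. With the 100 highest genes left out of the total, summed levels of antisense genes were 1347, 1404, 1293 and 1126 CPM instead of 1095, 1145, 990 and 865, and those of LINC genes 239, 249, 224 and 225 instead of 194, 203, 171 and 173. Those of the 5 added genes were 1881, 1393, 2206 and 2266 instead of 1529, 1137, 1690 and 1740. The SNHG sums rose too. These totals rise because the divisor is smaller. Low means limit most LINC and antisense values.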

Other observations

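Of a list of 28 long noncoding RNAs, among them the member EPB41L4A-AS1 and ZFAS1, which the tables hold as the member ZNFX1-AS1, 21 had a mean of 10 or more. UCA1 was listed in the HCT116-derived tables alone, at 76.3 and 150 CPM, and HOTAIRM1 too, at 2.82 and 2.75. PVT1, the neighbour of MYC, stood at 32.8 and 46.4 against 4.90 and 6.13. These were the 3 genes of those 21 past 4-fold towards HCT116, where 12.1% of all genes were. In the other direction MIAT stood at 0.61 and 0.50 against 23.8 and 37.1, and the microRNA host genes MIR31HG at 5.10 and 3.07 against 59.8 and 50.3 and MIR22HG at 5.83 and 7.2 against 37.1 and 48.3. MEG8 was the fourth of the 21 in this direction, where 7.71% of all genes were past 4-fold.

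TUG1 stood at 232 and 239 CPM in the RPE1-derived tables and at 146 and 115 in the HCT116-derived ones. DANCR, a snoRNA host, stood at 36.6 and 59.3 against 26.2 and 19.1.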
